A study of Drosophila melanogaster with 2 samples.

Results

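The peaks described here are binding peaks of Rx-eGFP that lie inside introns and far from any protein-coding transcription start, outside the X chromosome. Rx-eGFP is the retinal homeobox protein fused to green fluorescent protein. It was precipitated with an antibody against GFP from sonicated chromatin of whole Drosophila melanogaster embryos aged 0 to 24 h, and the DNA was sequenced (ChIP-seq). All embryos carried the Rx-GFP insertion, and there was 1 group with 2 biological replicates of the same strain, so no comparison of genotypes or treatments exists. The antibody field of the labels reads Rx, and no label names the promoter that drives the fusion protein. The labels give the whole organism and no cell type, which means that cells with and without Rx were mixed. A member is a peak of the series-wide conservative list whose summit is on 2L, 2R, 3L, 3R or 4, inside a protein-coding gene, in no exon of a protein-coding transcript and over 5000 bp from the nearest protein-coding start. The rule used positions and no measured height. Of 2607 peaks on these arms (3303 in the whole list), 312 were members. The others were 572 intronic peaks over 500 and up to 5000 bp from a start (near-start intronic), 501 intergenic peaks, 1152 promoter peaks within 500 bp of a start and 70 exonic peaks.

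Rx is a paired-class homeodomain transcription factor. Homeodomains of this class contact DNA at TAAT cores, and a pair of such proteins can bind inverted TAAT cores a few bases apart. Introns of developmental genes in flies often hold enhancers, short stretches that raise transcription of a gene at a distance. A ChIP-seq peak marks DNA that was recovered with the tagged protein, by direct contact or through other proteins on the same chromatin.

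Summit windows of 10 members are printed to show which words were and were not near the highest points of these peaks. Each runs from 100 bp before to 100 bp after the summit on the plus strand of Release 6 (dm6), read from RefSeq. Capitals mark, on either strand, the 6-base word ACAGTG, a CTCF-like word (AGNNGGCGC) and the paired-class dimers, named P3 and P2 for inverted TAAT cores with 3 or 2 bases between them. The first 4 are the highest members with ACAGTG, the next 2 the highest with the CTCF-like word, the next 3 the highest with a dimer, and the last is the highest member of all, counted among those on 2L, 3L and 3R. In the first 4 windows ACAGTG stands well to one side of the middle. The CG32486 window, the highest, holds none of the marked words.
rdx, chr3R:14012622-14012822: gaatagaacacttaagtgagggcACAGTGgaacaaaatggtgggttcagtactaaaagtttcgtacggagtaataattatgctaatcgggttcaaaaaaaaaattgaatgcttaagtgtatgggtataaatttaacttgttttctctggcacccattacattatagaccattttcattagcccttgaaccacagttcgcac
CG6966, chr3R:15087679-15087879: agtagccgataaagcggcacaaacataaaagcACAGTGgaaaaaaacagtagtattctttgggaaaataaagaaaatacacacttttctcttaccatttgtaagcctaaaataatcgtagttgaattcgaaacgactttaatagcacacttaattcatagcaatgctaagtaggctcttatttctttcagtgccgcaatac
fz, chr3L:14303972-14304172: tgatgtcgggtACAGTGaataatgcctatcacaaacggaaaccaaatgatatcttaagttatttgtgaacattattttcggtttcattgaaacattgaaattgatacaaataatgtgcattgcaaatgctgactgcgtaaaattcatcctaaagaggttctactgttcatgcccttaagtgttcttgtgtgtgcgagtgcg
dpp, chr2L:2433525-2433725: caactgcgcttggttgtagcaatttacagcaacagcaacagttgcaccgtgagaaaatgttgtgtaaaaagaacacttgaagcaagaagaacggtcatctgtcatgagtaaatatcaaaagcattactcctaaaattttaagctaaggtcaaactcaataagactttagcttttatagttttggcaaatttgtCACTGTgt
osa, chr3R:17704311-17704511: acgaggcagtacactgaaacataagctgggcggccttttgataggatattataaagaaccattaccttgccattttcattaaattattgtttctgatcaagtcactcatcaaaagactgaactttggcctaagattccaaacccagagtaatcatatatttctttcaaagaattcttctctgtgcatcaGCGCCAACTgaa
Jupiter, chr3R:11613265-11613465: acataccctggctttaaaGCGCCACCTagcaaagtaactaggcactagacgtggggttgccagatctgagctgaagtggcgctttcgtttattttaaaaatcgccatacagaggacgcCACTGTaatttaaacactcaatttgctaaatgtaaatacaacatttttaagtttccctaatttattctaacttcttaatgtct
CG10283, chr2L:18477472-18477672: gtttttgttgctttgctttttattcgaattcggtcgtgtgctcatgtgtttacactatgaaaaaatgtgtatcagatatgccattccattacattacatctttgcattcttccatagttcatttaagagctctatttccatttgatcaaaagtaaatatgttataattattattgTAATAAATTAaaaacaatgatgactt
CG34347, chr3R:31325167-31325367: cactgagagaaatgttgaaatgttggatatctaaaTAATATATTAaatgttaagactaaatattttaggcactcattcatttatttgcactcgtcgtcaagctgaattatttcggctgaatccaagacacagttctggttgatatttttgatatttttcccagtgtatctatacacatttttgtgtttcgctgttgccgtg
Fas3, chr2L:18328800-18329000: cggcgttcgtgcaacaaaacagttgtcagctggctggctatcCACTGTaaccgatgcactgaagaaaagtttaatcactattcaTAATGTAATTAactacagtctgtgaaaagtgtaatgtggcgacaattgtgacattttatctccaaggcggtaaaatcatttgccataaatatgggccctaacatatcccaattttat
CG32486, chr3L:3060705-3060905: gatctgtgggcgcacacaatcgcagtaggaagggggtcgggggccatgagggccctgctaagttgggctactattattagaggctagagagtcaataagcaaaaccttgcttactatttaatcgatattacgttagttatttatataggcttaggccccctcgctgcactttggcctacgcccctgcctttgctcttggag

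Distal intronic peaks had a median height close to that of other peaks away from starts and were less often high than promoter peaks. Height here means the signal that the authors deposited for each peak, in units that neither headers nor labels name. The median signal was 83.4 for the 312 members (lowest 2.48, highest 678), against 85.2 for near-start intronic, 83.1 for intergenic and 99.2 for promoter peaks. Of the members, 44.2% (95% Wilson interval 38.8 to 49.8%) lay above the median of all autosomal peaks, against 57.3% (54.4 to 60.1%) of promoter peaks (odds ratio 0.591, adjusted p by Fisher's exact test = 4.12e-04). The share was 47.6% of near-start intronic peaks (odds ratio 0.875, adjusted p by Fisher's exact test = 0.809) and 44.1% of intergenic peaks (odds ratio 1.00, adjusted p by Fisher's exact test = 1.0). With only the tallest peak kept per host gene in the intronic classes, and no promoter peak dropped, the difference from promoters was no longer called (odds ratio 0.853, adjusted p by Fisher's exact test = 0.727). Keeping the tallest peaks pushes the members' share up by construction, so this setting cannot tell whether the difference holds. Tests here are two-sided, are adjusted over 18 comparisons of 6 properties, and describe these lists, since peaks are not replicates. A p above 0.05 does not show that the classes are alike.

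**Figure D1:**
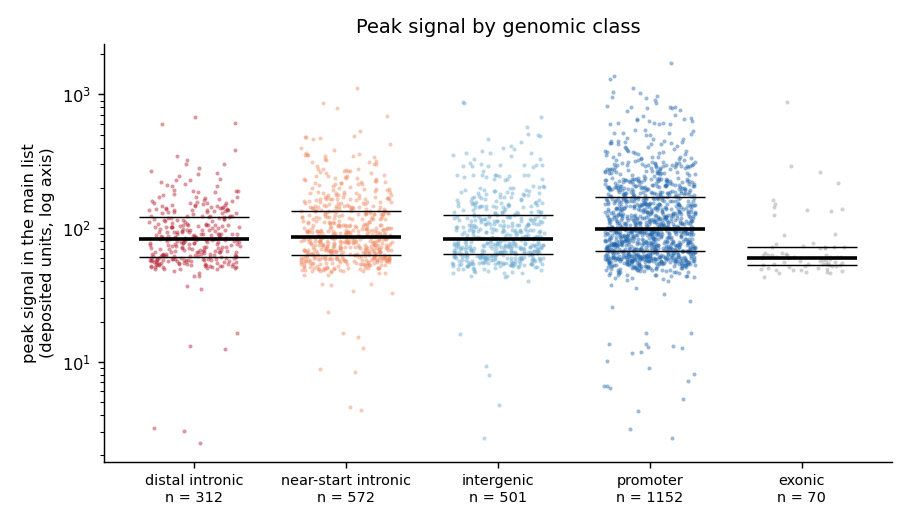
Signal of every autosomal main-list peak by class, in the deposited units on a log axis. Points are peaks, thick lines medians and thin lines quartiles. The 312 distal intronic peaks have a median of 83.4 and the 1152 promoter peaks a median of 99.2.

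Peaks in introns far from starts mostly had heights within a factor of 2 of each other in the replicates. The signal of the overlapping peak in the replicate's own ranked list had a median of 45.4 in replicate 1 and 39.1 in replicate 2. The ratio of replicate 2 to replicate 1 had a median of 0.938 over the 306 members with both values, and 298 (95.5% of all 312) lay within a factor of 2, against 94.3% of other autosomal peaks. Across these 306 members Spearman's rho was 0.712, a description over peaks that share both libraries. The main list was cut at an irreproducible discovery rate. Agreement between replicates is therefore in part built in, for members and other peaks alike. The 8 members outside the factor were all higher in replicate 1. The most uneven was in eIF5B, a translation initiation factor gene named after its values were seen, with 110.6 in replicate 1 and 39.9 in replicate 2. No peak of the replicate 1 ranked list overlapped 6 members, among them one in EcR with 91.7 in replicate 2. At the other end, 6 members had a main-list signal under 20 although the overlapping peaks had 24.4 to 51.8 in replicate 1 and 26.7 to 45.8 in replicate 2. The lowest, in sff and named after its values were seen, had 2.48 in the main list and 26.0 and 32.0 in replicates 1 and 2. Peaks of 14 members overlapped another main-list peak.

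**Figure D2:**
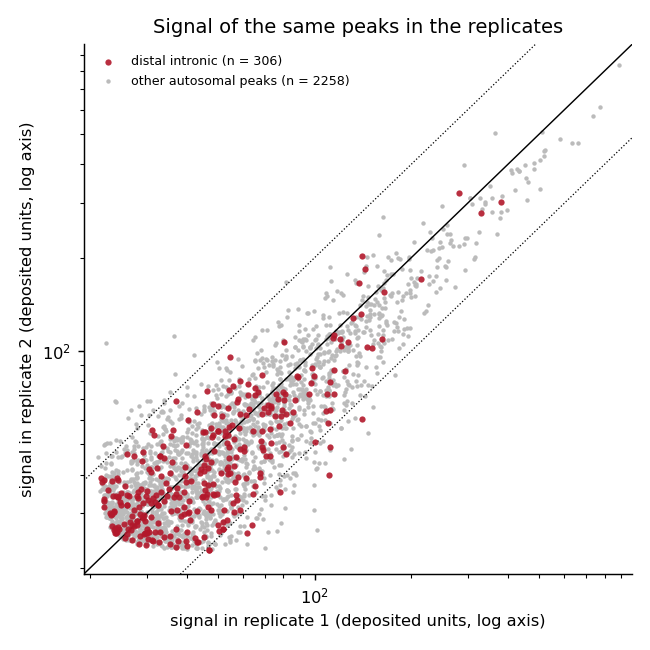
Signal of each peak in replicate 1 (x axis) and replicate 2 (y axis), in the deposited units on log axes. Dark points are the 306 distal intronic peaks with a value in both, pale points the other autosomal peaks, the solid line equality and the dotted lines a factor of 2. All 8 distal intronic peaks outside the dotted lines lie below the lower one.

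Support in the thresholded lists was weaker than for promoter peaks. A peak of replicate 1's own list overlapped 192 members (61.5%), and a peak of replicate 2's own list overlapped 164 (52.6%). Both lists held 138 members (44.2%), where 49.7% of all autosomal main-list peaks had both, and neither held 94 (30.1%). For promoter peaks the share in both was 57.0% (odds ratio 0.598, adjusted p by Fisher's exact test = 4.12e-04), for near-start intronic peaks 44.8% (odds ratio 0.979, adjusted p by Fisher's exact test = 0.98) and for intergenic peaks 46.3% (odds ratio 0.920, adjusted p by Fisher's exact test = 0.85). Height moved with this support. Of the 78 members lowest in signal 1 was in both lists, and of the 78 highest 74 were. The signal and the lists came from the same libraries, and the lists were cut at a threshold, so this relation is in part built in. Among the highest 50% of peaks the odds ratio to promoters was 0.819 (Fisher's exact test, adjusted p = 0.599).

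The highest member was in an intron of CG32486 at chr3L:3060697-3060910, with a signal of 381.2 in replicate 1 and 301.9 in replicate 2 (678 in the main list), 5726 bp from a start. The next lay at chr2R:10219946-10220199, inside CG12912, CG46321 and Hr3, the last a nuclear receptor gene of the ecdysone cascade, with 330.3 and 278.5 in replicates 1 and 2. In osa, which encodes a subunit of the Brahma remodelling complex, a peak at chr3R:17704310-17704514 had 281 and 323, and another at chr3R:17700460-17700743 had 145.7 and 103.0. The 12 highest members were all in both replicates' own lists, and the lowest of these had a signal of 255.7 in the main list.

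Psc, a Polycomb group gene, held a peak with 165.0 in replicate 1 and 155.3 in replicate 2 at chr2R:12975501-12975651. JIL-1, a histone H3 kinase gene, held one with 137.1 and 165.3 at chr3L:11084739-11084868. The peak shared by Mi-2, the ATPase of the NuRD complex, and Su(Tpl), a transcription elongation factor gene, had 139.0 and 131.6 at chr3L:19903213-19903344. In rdx, a Hedgehog-induced adaptor of Cullin-3, the values were 144.0 and 184.2 at chr3R:14012645-14012797, and in CG6959 they were 132.0 and 127.6 at chr3R:11849773-11849915. The other 3 of the 12 lay in sbb. Among the 100 highest autosomal peaks 4 were members, 14 near-start intronic, 13 intergenic, 68 at promoters and 1 exonic. Of all 2607 autosomal peaks these classes held 312, 572, 501, 1152 and 70 in the same order.

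Counted over windows of 100 bp to each side, the homeodomain core TAATTA had a share at these summits close to that of flanking windows, although within 50 bp it was denser than farther out, as given with the densities. It was within 100 bp of 46 of 312 summits (14.7%, 11.2 to 19.1%) and in 91 of 610 windows of equal length centred 1000 bp away (14.9%, 12.3 to 18.0%). The shares were 16.4% at near-start intronic, 13.2% at intergenic and 17.4% at promoter summits, with adjusted p of 0.823, 0.81 and 0.639 by Fisher's exact test. The P3 dimer was in 4 member windows (1.28%) and 15 flanking windows (2.46%). The P2 dimer was in 6 member windows (1.92%) and 7 flanking windows (1.15%). The highest member with a dimer, in CG10283, had 65.4 in replicate 2 and no overlapping peak in the replicate 1 ranked list, and the one in CG34347 had 43.1 in replicate 1 and 63.6 in replicate 2. The printed Fas3 peak had 50.5 in replicate 2 and also no overlapping peak in the replicate 1 ranked list. AT-rich control words of the same length gave 13.1% at summits and 12.1% in flanks for TTATAA, 30.8% and 19.0% for AATATT, and 18.9% and 14.6% for ATATAT. Summit windows had a median GC content of 36.3% and flanking windows 40.3%, and the part of base composition in these shares was not tested.

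ACAGTG was the commonest of the words that were not AT-rich controls. It was within 100 bp of 75 member summits (24.0%, 19.6 to 29.1%) and in 50 of 610 flanking windows (8.20%, 6.27 to 10.6%). At near-start intronic summits the share was 25.2% (odds ratio 0.941, adjusted p by Fisher's exact test = 0.894), at intergenic summits 18.2% (odds ratio 1.43, adjusted p by Fisher's exact test = 0.395) and at promoter summits 18.9% (odds ratio 1.36, adjusted p by Fisher's exact test = 0.395). Flanking windows of these classes held it in 8.67%, 4.69% and 8.50% of cases, so a higher share at summits than in flanks was not particular to members. In replicate 2's own list the share was called higher than at intergenic summits (odds ratio 1.96, adjusted p by Fisher's exact test = 0.0451) and promoter summits (odds ratio 1.95, adjusted p by Fisher's exact test = 0.017). In replicate 1's own list neither was called, with odds ratios of 1.74 to intergenic and 1.38 to promoter summits (adjusted p by Fisher's exact test = 0.206 and 0.397). Members with the word had a median signal of 96.3, and those without it 79.1. For the AT-rich control AATATT the medians with and without the word were 89.7 and 80.9. They were 90.2 and 81.6 for ATATAT, and 77.5 and 84.1 for TTATAA. In 4 groups of 78 members, from lowest to highest signal, 9, 17, 22 and 27 held ACAGTG, while TAATTA was in 14, 11, 9 and 12. Median GC content in these groups was 39.3%, 35.6%, 35.6% and 35.3%, and its part in these counts was not tested. Both ACAGTG and TAATTA were near 13 summits and neither was near 204.

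The first 6 members with ACAGTG by height were a peak in Hr3 (above), rdx, CG6966, fz, dpp and E23. In CG6966 the signal was 119.9 in replicate 1 and 109.0 in replicate 2. In fz, a Wnt receptor gene, it was 126.7 and 106.7. In dpp, a BMP ligand gene, it was 114.7 and 113.0. In E23, an ATP-binding cassette transporter gene induced by ecdysone, it was 121.2 and 103.8. In each of these the replicates were closer than a factor of 2.

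ACAGTG was denser from 50 to 100 bp from the summit than within 50 bp of it. Over both strands it occurred 0.929 times per kb within 50 bp of member summits, 1.79 per kb from 50 to 100 bp, 1.19 per kb from 100 to 150 bp, 0.609 per kb from 150 to 200 bp and 0.417 per kb from 450 to 500 bp. The same order held at near-start intronic summits, with 1.08, 1.98 and 1.14 per kb in the first 3 steps, and at intergenic summits, with 0.758, 1.44 and 0.858. TAATTA had its highest density within 50 bp of member summits, 1.09 per kb, against 0.577 per kb from 50 to 100 bp and 0.513 per kb from 100 to 150 bp. The control AATATT also had a high density there, 1.76 per kb within 50 bp and 1.76 per kb from 50 to 100 bp, falling to 0.609 per kb from 100 to 150 bp. In the same 3 steps the control TTATAA had 0.897, 0.609 and 0.449 per kb, and the control ATATAT had 1.51, 1.09 and 0.705. TAATTA was also densest within 50 bp of near-start intronic (1.03 per kb) and promoter summits (1.18 per kb), but not of intergenic summits (0.739 per kb). These densities are descriptions with no test.

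**Figure D3:**
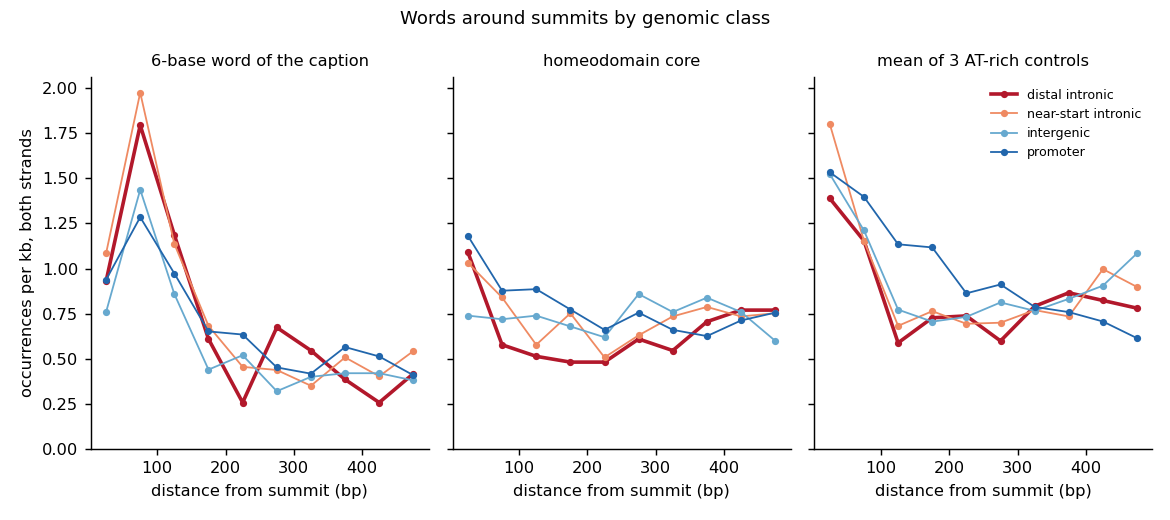
Occurrences per kb of ACAGTG (left), the homeodomain core TAATTA (middle) and the mean of 3 AT-rich control words (right) by distance from the summit in steps of 50 bp, for distal intronic, near-start intronic, intergenic and promoter peaks. At distal intronic summits ACAGTG is highest from 50 to 100 bp (1.79 per kb), and TAATTA is highest within 50 bp (1.09 per kb). The mean of the controls is also highest within 50 bp (1.39 per kb).

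Among all 34 words, 3 of 102 comparisons with other classes (2.94%) were called, all of them words of promoter-associated factors that were rarer at members than at promoters. CGATA, bound by the insulator protein BEAF-32, was at 18.6% of member and 35.4% of promoter summits (odds ratio 0.416, adjusted p by Fisher's exact test = 6.94e-07). TATCGATA, the DNA replication-related element, which contains CGATA, was at 1 member summit (0.321%) and 5.90% of promoter summits (odds ratio 0.0513, adjusted p by Fisher's exact test = 6.77e-05). GGTCACAC, bound by the core promoter factor M1BP, was at 1 member summit and 3.73% of promoter summits (odds ratio 0.0829, adjusted p by Fisher's exact test = 0.0181). The call for M1BP was lost in 6 alternative settings, among them replicate 1's own list, with odds ratios of 0 to 0.142 and adjusted p by Fisher's exact test of 0.138 to 0.794. Member flanks held CGATA in 17.9% of windows, close to the share at their summits. Against near-start intronic and intergenic peaks no word was called by Fisher's exact test, and at an unadjusted p under 0.05 there were 1 and 3. The other words searched, by factor or kind, were those of K50 homeodomain with TAATCC, Hox-Exd with TGATTNAT, GAGA factor with GAGAGAG, CA repeat with CACACACA, Su(Hw)-like with GCATACTT, the core promoter box with TATAAAA, Pho with GCCATT, Zelda with CAGGTAG, E-box with CAGCTG, E-box with CATATG, E-box with CACCTG, Serpent with AGATAAG, forkhead with TGTTTAC, Runt with TGTGGTT, Sox with ACAATGG, Ets with CCGGAAG, AP-1 with TGANTCA, CREB with TGACGTCA, nuclear receptor with AAGGTCA, TCF with ATCAAAG, Grainyhead with AACNGGTT, STAT with TTCNNNGAA and Mad with GCCGNCG, each on both strands.

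The CTCF-like word, AGNNGGCGC, was near 14 member summits (4.49%) and in 11 of 610 flanking windows (1.80%). It was at 2.27% of near-start intronic summits (odds ratio 2.02, adjusted p by Fisher's exact test = 0.456), 4.79% of intergenic summits and 2.86% of promoter summits. The highest member with it was the osa peak printed above. Next came EcR, with 91.7 in replicate 2, Jupiter, a microtubule-associated protein gene, with 73.1 and 65.6 in replicates 1 and 2, and Eip75B, an ecdysone-induced nuclear receptor gene, with 36.9 and 69.1. In the Jupiter window an ACAGTG also stands on the minus strand.

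A 6-mer overlapping ACAGTG had 1 of the 5 highest ratios of summit share to flank share. Of 1918 6-mers found in at least 20 windows of members or flanks, those with the highest ratio of summit share to flank share were CCTAAC (6.73% and 1.64%), GTGCAC (14.1% and 3.44%), CAGTGC (25.3% and 7.38%), CTGTAC (12.5% and 3.77%) and ACTGAG (16.3% and 5.08%). CAGTGC shares its first 5 bases with the last 5 of ACAGTG. The ratio was 3.43 for CAGTGC and 2.93 for ACAGTG. Both were counted in the same windows, so CAGTGC is no separate support for ACAGTG. The lowest ratios were those of GCCGGA (0.321% and 5.25%), CGTCGA and CCTCCG (0.641% and 4.43% each), CTCCTC (1.28% and 8.36%) and CCGGCC (0.641% and 3.93%). These words are rich in G and C, and the flanks had the higher GC content given above. CAGTGC and GTGCAC also had higher shares at summits than in flanks in the other classes. For CAGTGC the summit and flank shares were 18.2% and 10.04% in near-start intronic peaks and 20.8% and 9.58% in intergenic peaks. For GTGCAC they were 11.2% and 4.20% in near-start intronic peaks and 11.4% and 4.69% in intergenic peaks. At promoter summits CAGTGC had a share of 15.5% and its flanks 10.5%, and GTGCAC 7.20% and 4.50%.

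The density of intronic summits was lower in each step away from a start. Per Mb of coding-gene intron it was 54.0 (95% exact Poisson interval 46.3 to 62.7) from 500 to 1000 bp, 34.4 from 1000 to 2000 bp and 23.2 from 2000 to 5000 bp. In the distances that hold the members it was 19.1 (16.3 to 22.2) from 5000 to 10000 bp, 13.9 (11.3 to 16.9) from 10000 to 20000 bp, 11.7 (8.47 to 15.8) from 20000 to 40000 bp and 1.24 (0.497 to 2.55) beyond 40000 bp, where 7 summits fell in 5.66 Mb. Between 5000 and 40000 bp the intervals of neighbouring steps overlap. Soft-masked repeats made up 21.3% of the intron sequence from 5000 to 10000 bp and 36.4% beyond 40000 bp, and their part in the densities was not tested. Median signal did not follow the order of distance, with 83.5, 82.8, 84.1 and 67.6 in the 4 steps beyond 5000 bp. The farthest member, named after its values were seen, was in Myo81F, 746 kb from the nearest start. In Myo81F 1954530 bp of intron lay over 5000 bp from a start and held 1 member. How much of the 5.66 Mb beyond 40000 bp this gene supplies was not counted. At the limit itself the nearest member lay 5005 bp and the farthest near-start intronic peak 4977 bp from a start. The 51 members up to 1000 bp beyond the limit had a median signal of 77.3, and the 64 near-start intronic peaks up to 1000 bp inside it had 83.0.

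**Figure D4:**
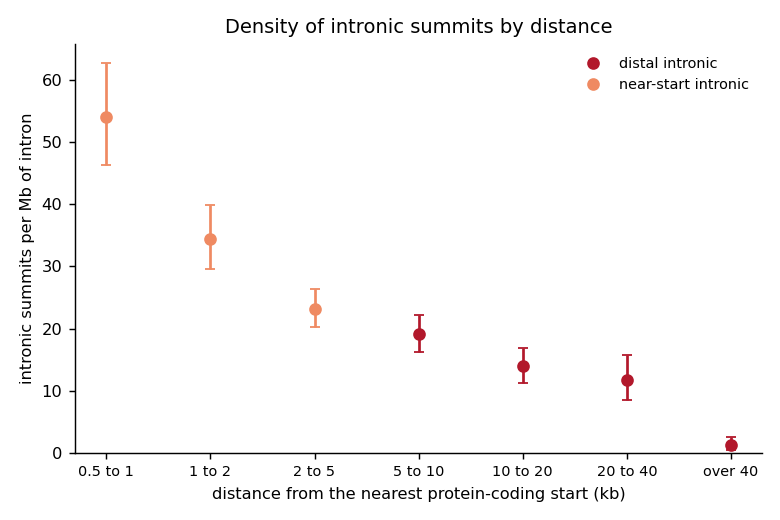
Intronic summits per Mb of protein-coding intron (y axis) by distance from the nearest protein-coding start (x axis), with 95% exact Poisson intervals. Points over 5 kb are distal intronic peaks and the others near-start intronic peaks. The density is 19.1 per Mb from 5 to 10 kb and 1.24 per Mb beyond 40 kb.

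The rule fixes long introns and long distances, so both are given beside the eligible sequence, which is intronic, outside coding-transcript exons and over 5000 bp from a start. The introns of members had a median length of 19.6 kb, against 20.6 kb over all bases of eligible sequence. The distance to the nearest protein-coding start had a median of 9.74 kb for members and 14.1 kb for eligible bases. In the first intron of the host's merged exon map were 90 of 312 summits (28.8%), against 17.5% of eligible bases. These values were not tested. The distance to the nearest exon of the host had a median of 4.73 kb, and 7 summits lay within 250 bp of an exon. The nearest start belonged to a gene enclosing the summit for 220 members (70.5%) and to another gene for 92. One summit was inside an annotated transposon. On the arms there were 18.2 members per Mb of eligible sequence on 2L (14.5 to 22.6), 11.8 on 2R (9.03 to 15.2), 12.3 on 3L (9.63 to 15.4) and 10.4 on 3R (8.42 to 12.8). Of the 8.91 Mb of eligible sequence on 3R, 1954530 bp were in Myo81F, which held 1 member. On chromosome 4 there were 0 members in 0.288 Mb, which allows up to 12.8 per Mb by the exact Poisson interval.

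Another main-list summit lay within 5000 bp of 102 members (32.7%), against 53.8% of near-start intronic summits (odds ratio 0.416, adjusted p by Fisher's exact test = 3.05e-08) and 42.3% of intergenic summits (odds ratio 0.662, adjusted p by Fisher's exact test = 0.0223). The distance rule keeps promoter summits away from members, and when only summits outside promoters counted as neighbours, a setting added after seeing the data, the share was 32.7% of members, 40.0% of near-start intronic and 37.3% of intergenic peaks and neither difference was called (adjusted p by Fisher's exact test = 0.126 and 0.601). Non-coding genes enclosed 12 members (3.85%), against 10.8% of intergenic summits (odds ratio 0.331, adjusted p by Fisher's exact test = 0.00143), a class defined as lying outside coding genes. Of these 12, 6 were in lncRNA:CR45939 inside ftz-f1.

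The members lay in 216 genes, which is 14.4% of the 1498 protein-coding genes with eligible sequence. Of the members, 300 were inside 1 coding gene each, 11 inside 2 overlapping genes and 1 inside 3. A single member was found in 150 genes, 2 members in 39, 3 members in 17 and 4 or more in 10. Genes with more eligible sequence were more often hosts, but members per Mb were not highest in them. In 4 groups of 374 or 375 genes, from the shortest eligible length to the longest, 0%, 7.49%, 19.0% and 31.2% were hosts. The members per Mb of eligible sequence in the same groups were 0, 23.3, 20.9 and 10.2.

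The genes with most members were sbb, ftz-f1, Snoo and SKIP. In sbb, also called brakeless, a corepressor gene, 6 peaks stood in intron 1, and from highest to lowest they had 215, 140, 162, 68.8, 60.4 and 45.5 in replicate 1. In replicate 2 the same sbb peaks had 171, 202, 110, 55.2, 49.1 and 35.8. The 3 highest sbb peaks lay within chr2R:18335190-18338574. In ftz-f1, a nuclear receptor gene, 6 peaks stood in intron 2 and were low, with 23.8 to 42.9 in replicate 1 and 24.2 to 39.5 in replicate 2. The 6 ftz-f1 peaks do not reach the lowest of the 6 sbb peaks in replicate 1, but the groups overlap in replicate 2. Snoo, which encodes a Smad-associated regulator, and SKIP held 5 each, with replicate 1 values of 23.9 to 80.8 in Snoo and 27.0 to 100.3 in SKIP, and replicate 2 values of 26.9 to 76.1 in Snoo and 24.5 to 50.8 in SKIP.

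Genes of signalling pathways and of the ecdysone and nuclear receptor group were most often hosts among 10 gene lists. Segmentation genes had the most members per Mb, from only 5 members. Counts are descriptions, beside 14.4% of all eligible genes and 12.1 members per Mb of their eligible sequence, and the lists overlap. Of 36 eligible signalling genes (EGF, FGF, Wnt, Hedgehog, BMP and Notch), 18 were hosts (50%), with 39.1 members per Mb, a median eligible length of 12.2 kb against 6.40 kb for all genes, and a median signal of 93.0 against 83.4 for all members. Their highest were in fz and dpp, given above, and in cv-2, which encodes a BMP-binding protein, with 80.1 in replicate 1 and 107.3 in replicate 2. Of 15 eligible ecdysone and nuclear receptor genes, 9 were hosts (60.0%), with 40.5 members per Mb, a median eligible length of 19.8 kb and a median signal of 65.9. Of the 17 members behind that density, 6 were in ftz-f1 alone, and 1 of these 6 was in both replicates' own lists. After Hr3 came EcR, the ecdysone receptor gene, and Eip74EF, an ecdysone-induced Ets factor gene, with 72.6 and 56.0 in replicates 1 and 2.

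Axon guidance and adhesion genes were hosts in 17 of 73 cases (23.3%), with 10.2 members per Mb of their long introns, and led with fz, Fas3 and Sema1a. In Fas3, a homophilic adhesion gene, the taller peak, which is not the one printed above, had 83.7 and 58.7 in replicates 1 and 2. Sema1a, a guidance cue gene, had 55.7 and 77.0. Neural and homeobox transcription factor genes were hosts in 14 of 72 cases (19.4%) with 18.2 members per Mb, led by hth (95.9 and 72.7), Antp (61.9 and 78.2) and Mef2 (53.7 and 65.4). Synapse, transmitter and ion channel genes had 1 host of 55 (1.82%) with 0.881 members per Mb. It was Ca-beta, a calcium channel subunit gene, with 49.9 and 27.4 in replicates 1 and 2. Eye specification and phototransduction genes also had 1 host, hth, of 15 (6.67%), with 10.4 members per Mb.

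Segmentation and head patterning genes had 3 hosts of 13 (23.1%) and 51.3 members per Mb, from 5 members in 0.0975 Mb of eligible sequence. Of these 5 members, 3 were in nkd and 1 was in both replicates' own lists, and their median signal was 60.9. The hosts were nkd, a Wnt antagonist gene (79.9 and 73.7 in replicates 1 and 2), cad (21.6 and 39.1) and wg (29.7 and 28.3). Muscle and mesoderm genes had 4 of 21 (19.0%) at 9.30 members per Mb, led by how, Mef2 and Zasp52 (55.7 and 32.5). RNA-binding genes had 3 of 16 (18.8%) at 2.64 members per Mb, which were how (73.2 in replicate 2, with no overlapping replicate 1 peak), msi (41.1 and 38.1) and Rbfox1 (28.6 and 25.4). Cytoskeleton and GTPase genes had 4 of 38 (10.5%) at 16.8 members per Mb, led by spir (111.5 and 79.3), scrib (79.8 and 48.9) and pyd (57.3 and 68.3). No list was tested.

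**Figure D5:**
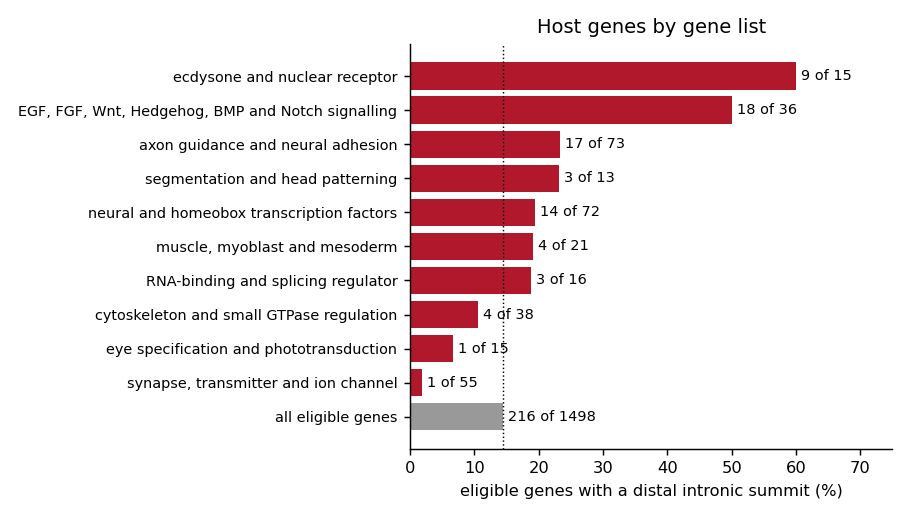
Share of eligible genes that hold a distal intronic summit (x axis, percent) in each of 10 gene lists, with the share over all 1498 eligible genes at the bottom and as the dotted line (14.4%). Numbers beside the bars are hosts of eligible genes. Ecdysone and nuclear receptor genes (60.0%) and signalling genes (50%) stand highest.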

How the data were processed

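The authors deposited peak lists on dm6, 4 cut at an irreproducible discovery rate (IDR) and 4 ranked in full, for each replicate and for the series. Each list holds a signal per peak, as deposited by the authors, with no scale given. The series-wide ranked list also holds −log10 of the global IDR, deposited by the authors, and main-list peaks had 2.00 or more. Software for alignment and peak calling: not given in the sources used here. No file gives read counts, so depth is unknown, and intervals cover counting error only.

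Summits were placed on Ensembl release 115 genes and on Release 6 sequence, using Python 3.11.15, pandas 2.3.3 and scipy 1.17.1. Overlap means at least 1 bp. A replicate's signal was read from its own ranked list, at the tallest peak overlapping the member. The shares were compared by Fisher's exact test, with Benjamini-Hochberg adjustment over 18 property and 102 word comparisons and a threshold of 0.05. In simulated sequence with equal base shares the test recovered planted words. The planted difference between classes was larger than that of any word compared here, so the simulation does not cover smaller differences. Of 724 gene list entries, 699 matched a gene. Members, gene lists and words were chosen with earlier results of these data known. Named are the 12 highest members, those of the genes with most members, the highest per gene list and per word shown, words past the threshold, and the 5 highest and 5 lowest 6-mers. Alternatives tried were the second list made for the series, lists of single replicates, stricter lists, other distance limits, windows, overlaps and neighbour radii, and 1 peak per gene. For 1 peak per gene, the tallest peak of each host was kept in the distal and near-start intronic classes, and no other class was thinned.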

Additional observations from a re-analysis of the deposited data

Results flagged for a closer look

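In the series-wide ranked list, 8 peaks met the positional rule and had a −log10 global IDR of at least 2.00, the lowest value in the main list, but were not in the main list and overlapped none of its peaks. They were taken up for a closer look because they lie in data outside the main measurement. All 8 were on 3R, 5 of them in tara with signals of 231.1, 133.0, 94.4, 80.2 and 66.8, 1 in jumu with 109.8 and 2 in InR with 84.3 and 58.1. Their median signal was 89.4, against 83.4 for the 312 members. They were not used in any comparison.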

How the results depend on the processing

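Against the reported values, 541 values under alternative settings stayed on the same side of the threshold, among them 71 odds ratios, called in neither setting, that crossed 1. Another 16 lost a call, 7 gained one, 14 counts moved by over 1.5 times and 1 value, called only in the alternative, reversed. The cause was not tested. The number of distal intronic peaks, 312, was 183 to 224 in a single replicate's list, 141 at a global IDR under 0.001, 138 among the highest 50% of peaks, 484 over 2500 bp and 149 over 10000 bp from a start. Host genes, 216, numbered 151 to 169, 118, 117, 329 and 99 in the same order. Words called against promoters, 3 as reported, numbered 2 to 5 in single replicates' lists and 5 over 2500 bp. Against intergenic peaks there were 0 to 1 in single replicates' lists and 1 with 1 peak per host gene, and against near-start intronic peaks 2 in the other series-wide list. The M1BP word lost its call in 6 settings.

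The odds ratio of a share in both lists to promoters was 0.789 at the stricter IDR, 0.819 among the highest 50% and 0.814 with 1 peak per gene, each no longer called. That of a high signal to promoters was 0.853 with 1 peak per gene, and to near-start intronic peaks 0.649 to 0.893 in single replicates' lists, called in replicate 1's. With 1 peak per gene the tallest was kept, which pushes both of these shares of members up against promoters by construction. For a neighbour, the odds ratio to intergenic peaks lost its call at 0.873 over 2500 bp, 0.609 over 10000 bp, 0.652 within 2000 bp and 0.816 without promoter neighbours, and to near-start intronic peaks at 0.728 without promoter neighbours. To promoters it was 0.633 to 0.638 in single replicates' lists, 0.424 with 1 peak per gene and reversed to 2.61 without promoter neighbours, a setting that takes away the commonest neighbours of promoter peaks by construction. The share in a non-coding gene against intergenic peaks was 0.532 over 10000 bp, no longer called. Low GC against promoters was called at 0.504 with windows of 150 bp to each side. The neighbour setting without promoters was added after seeing the data. No paired analysis was possible because there is 1 group. Read depth is unknown and limits are not given in counts.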
